A study of Mus musculus with 24 samples.

Results

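The unfolded protein response and the integrated stress response were followed in alveolar epithelial type 2 cells (AEC2s) through a list of 36 genes, picked for their known roles. The list holds 15 chaperones and folding enzymes of the endoplasmic reticulum (ER), 4 genes of ER-associated degradation, 3 stress sensors with Xbp1, Atf4 with 5 stress effectors, 5 enzymes of amino acid and one-carbon metabolism, and 2 amino acid transporter subunits. All 36 were found among the 55421 mouse genes of the count table, and all 36 passed the filter on low counts that left 18046 genes to test. RNA was sequenced from AEC2s of Krt8+/+ (WT) mice and of Krt8-/- (KO) mice, a global knockout and not one of AEC2s alone. Cells were taken on the day of isolation (day 0) or after 1, 3, and 7 days in 2D on a stiff surface coated with laminin. In culture, surfactant genes were lost and genes of a transitional state rose and were still high on day 7. The mean summed level of a list of genes of type 1 cells (AEC1s) was not above day 0 on any later day in either genotype. In both genotypes the means of Hopx, Pdpn, Cav1, Rtkn2, Akap5, Clic5, Emp2, and Spock2 were higher on day 7 than day 0. Those of Ager, the most abundant gene of that list on day 0, and of Aqp5 were lower. Each of the 8 groups of genotype and day held 3 libraries with 3 batch dates in the labels, each date shared by all groups, and the labels name no added agent. The sources used here give neither the strain and age of the mice nor the number of mice per batch. Total counts ranged from 10184439 to 19483386 per library.

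Proteins that enter the secretory pathway are folded in the ER by chaperones, and those that fail are pulled back into the cytosol and degraded. When unfolded proteins build up, the sensors IRE1, ATF6 and PERK respond, raising chaperone and degradation genes through the transcription factors XBP1 and ATF6 and slowing translation through eIF2. ATF4, which is translated when eIF2 is phosphorylated, raises genes of amino acid uptake and synthesis and can also be reached through kinases that sense amino acid shortage, heme shortage or viral RNA. AEC2s carry a large secretory load, since they make surfactant proteins. The counts measure RNA and not splicing of Xbp1, cleavage of ATF6, phosphorylation or protein.

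Levels are CPM, counts scaled to the library total and edgeR's TMM factors, given for batches 1, 2, and 3 in this order. Changes are log2 fold changes with standard errors (SE) from edgeR's quasi-likelihood test of all 24 libraries, with p values adjusted by Benjamini-Hochberg over the 18046 genes and a threshold of 0.05. The labels call the 3 dates biological replicates 1 to 3 and do not say what was done on each date, so p values measure the spread between these libraries. Over the 4 days Krt8 itself averaged 523, 3208, 3269, and 4030 CPM in Krt8+/+ AECs, against 29.6, 38.2, 30.3, and 30.2 CPM in Krt8-/- AECs, so the libraries matched their genotype labels. The summed level of 10 AEC2 markers, led by Sftpc, was 316707 CPM on day 0 in Krt8+/+ AECs, with none of the 10 at 0, and 71912, 1642, and 1531 CPM on days 1, 3, and 7.

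Batch 2 stood apart on day 1 in both genotypes. Its AEC2 marker sum on that day was 19661 CPM in the Krt8+/+ library and 18436 CPM in the Krt8-/- library, whereas batches 1 and 3 held 108685 and 87388 CPM in Krt8+/+ and 102015 and 81006 CPM in Krt8-/- AECs. For 21 of the 36 members, batch 2 was the lowest of the 3 batches on day 1 in both genotypes, and for 0 it was the highest in both. Over all genes tested, 22.8% were lowest and 18.6% highest there in both genotypes. Ppp1r15a, Herpud1, and Dnajb9 were furthest below the other batches in Krt8+/+ AECs, by 2.64, 1.55, and 1.54 on the log2 scale, and by 2.65, 1.48, and 1.95 in Krt8-/- AECs. Counts of members that rest on day 1, and the values of some genes, are therefore also given without these 2 libraries.

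In Krt8+/+ AECs on day 1 against day 0, 28 of the 36 members were called. All 13 members of the ATF4 group, the metabolic enzymes and the transporters rose, the 4 degradation genes and Xbp1 fell, and the chaperones divided, with 3 higher, 5 lower, and 7 not past the threshold. In all, 17 of 36 members rose where 26.2% of all genes tested did, and 11 fell where 28.5% of all genes did. The median change was 0.19 over the members and 0.00 over all genes. The Krt8-/- AECs gave 16 higher members beside 23.7% of all genes, and 11 lower beside 26.9%. Without batch 2 on day 1, the counts were 17 and 10 in Krt8+/+ and 18 and 8 in Krt8-/- AECs. The calls that this ended were Ern1 in Krt8+/+ AECs and Dnajb11, Pdia4, and Ern1 in Krt8-/- AECs. On day 0 AEC2 genes took a large part of each library, and scaling by total counts alone moved the median of all genes by 0.46 in Krt8+/+ and 0.47 in Krt8-/- AECs. Under that scaling 21 members were higher in Krt8+/+ AECs beside 39.8% of all genes, and 5 were lower beside 17.3%. It gave 21 higher in Krt8-/- AECs beside 39.1%, and 4 lower beside 15.4%, so the split of members and of all genes depended on the scaling. Relative to the shift of the median, no called member changed direction.

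**Figure D1:**
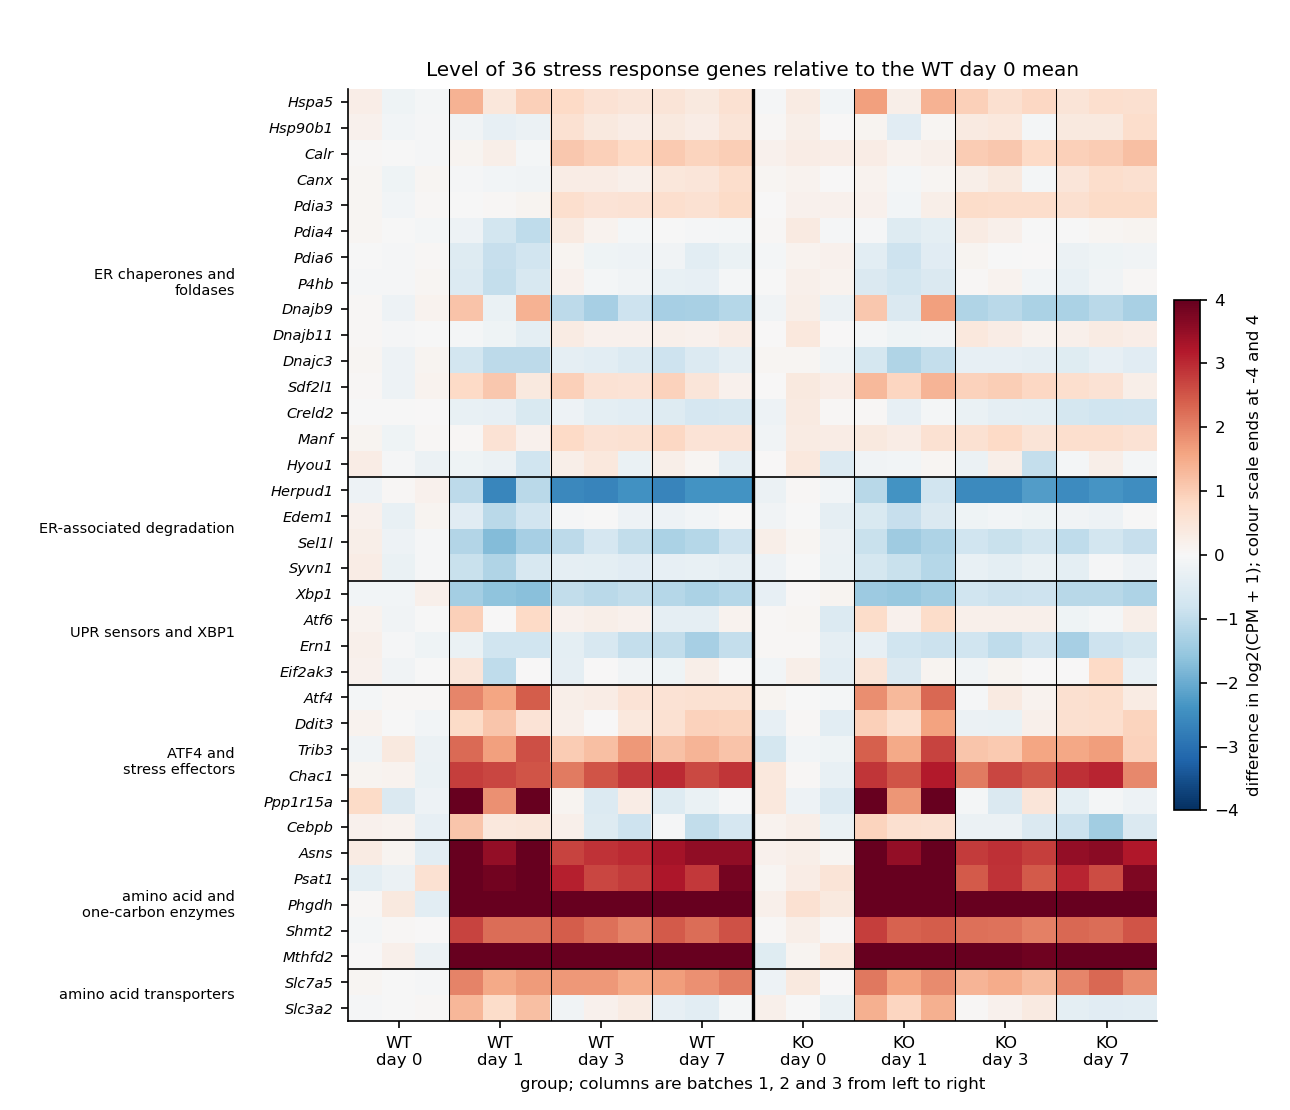
Level of the 36 members (rows, grouped by role) in each of the 24 libraries (columns, batches 1 to 3 within each group), as the difference in log2(CPM + 1) from the mean of Krt8+/+ (WT) AECs on day 0. Red is higher and blue is lower. The ATF4 group and the metabolic enzymes turn red on day 1, Herpud1, Sel1l, and Xbp1 turn blue, and the Krt8-/- (KO) columns look like the Krt8+/+ columns of the same day.

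Among ATF4 and the stress effectors, 6 of 6 rose on day 1 in Krt8+/+ AECs, where 26.2% of all genes rose, and 5 of the 6, all but Chac1, fell by day 3, where 11.9% of all genes fell. Atf4, the transcription factor at the centre of the integrated stress response, was at 114, 125, and 127 CPM on day 0, 478, 366, and 655 CPM on day 1, 145, 152, and 180.4 CPM on day 3, and 182, 188, and 187 CPM on day 7. Each day 1 library lay above each library of the other days. It rose 4.09-fold on day 1 (log2 2.03, SE 0.21, adjusted p = 1.52e-07), fell by day 3 (log2 -1.65, adjusted p = 1.32e-05), and was still 1.52-fold above day 0 on day 7 (adjusted p = 0.0167, a call lost without batch 1). Without batch 2 on day 1, the rise was 2.31 on the log2 scale. In Krt8-/- AECs, Atf4 was at 130.5, 121, and 115 CPM on day 0 and 444, 299.7, and 608 CPM on day 1, again without overlap.

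Ppp1r15a encodes GADD34, the phosphatase subunit that reverses eIF2 phosphorylation. Its level was 108, 41.9, and 54.6 CPM on day 0, 1665, 228, and 1211 CPM on day 1, 68.4, 42.6, and 77.3 CPM on day 3, and 44.1, 52.4, and 60.1 CPM on day 7 in Krt8+/+ AECs. The day 1 libraries lay above all others, but batch 2 was far below batches 1 and 3. The Krt8-/- AECs showed the same division, at 1532, 217, and 1217 CPM on day 1. The rise was 15.1-fold (log2 3.92, SE 0.65, adjusted p = 3.96e-05), and 4.48 on the log2 scale without batch 2 on day 1. To day 3 it fell by 4.04 on the log2 scale (SE 0.65, adjusted p = 0.00014), with libraries that overlapped those of day 0.

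Chac1, whose product degrades glutathione, did not follow this course. It stood at 1.78, 1.84, and 1.11 CPM on day 0 and at 16.2, 15.1, and 13.6, then 9.77, 13.7, and 17.2, then 19.1, 14.9, and 17.5 CPM on days 1, 3, and 7 in Krt8+/+ AECs. All 9 cultured libraries were above all 3 of day 0, and the ranges of days 1, 3, and 7 overlapped. Chac1 rose 9.36-fold on day 1 (adjusted p = 2.37e-07) and was 10.7-fold above day 0 on day 7 (adjusted p = 6.36e-08). The pseudokinase gene Trib3 rose from 10.9, 16.2, and 10.2 to 61.8, 40.2, and 77.7 CPM on day 1 (log2 2.27, adjusted p = 5.29e-06). It fell by day 3 (log2 -0.86, adjusted p = 0.0368), although 1 of its day 3 libraries lay within the range of day 1, and it stayed above day 0 on day 7 (log2 1.28).

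Ddit3, which encodes the cell death factor CHOP, rose less, from 13.2, 11.8, and 11.2 CPM on day 0 to 21.4, 27.1, and 17.9 CPM on day 1 (log2 0.87, SE 0.23, adjusted p = 0.00324). In Krt8-/- AECs the rise was from 9.36, 12.4, and 8.73 to 24.5, 19.7, and 38.6 CPM (log2 1.45, adjusted p = 3.12e-05). The Ddit3 gene overlaps Mars on the opposite strand, and Mars held 621% of the counts of Ddit3. The sources used here do not give the strand setting of the counting, so reads of the pair may have been shared out. Cebpb, a transcription factor of stress and acute phase genes, was at 96.5, 95.5, and 68.8 CPM on day 0 and 186, 114, and 118 CPM on day 1 in Krt8+/+ AECs (log2 0.68, adjusted p = 0.0415). That call was lost without batch 1 and without batch 3. Cebpb also overlaps a gene on the other strand, Tmem189, which held 104% as many counts.

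**Figure D2:**
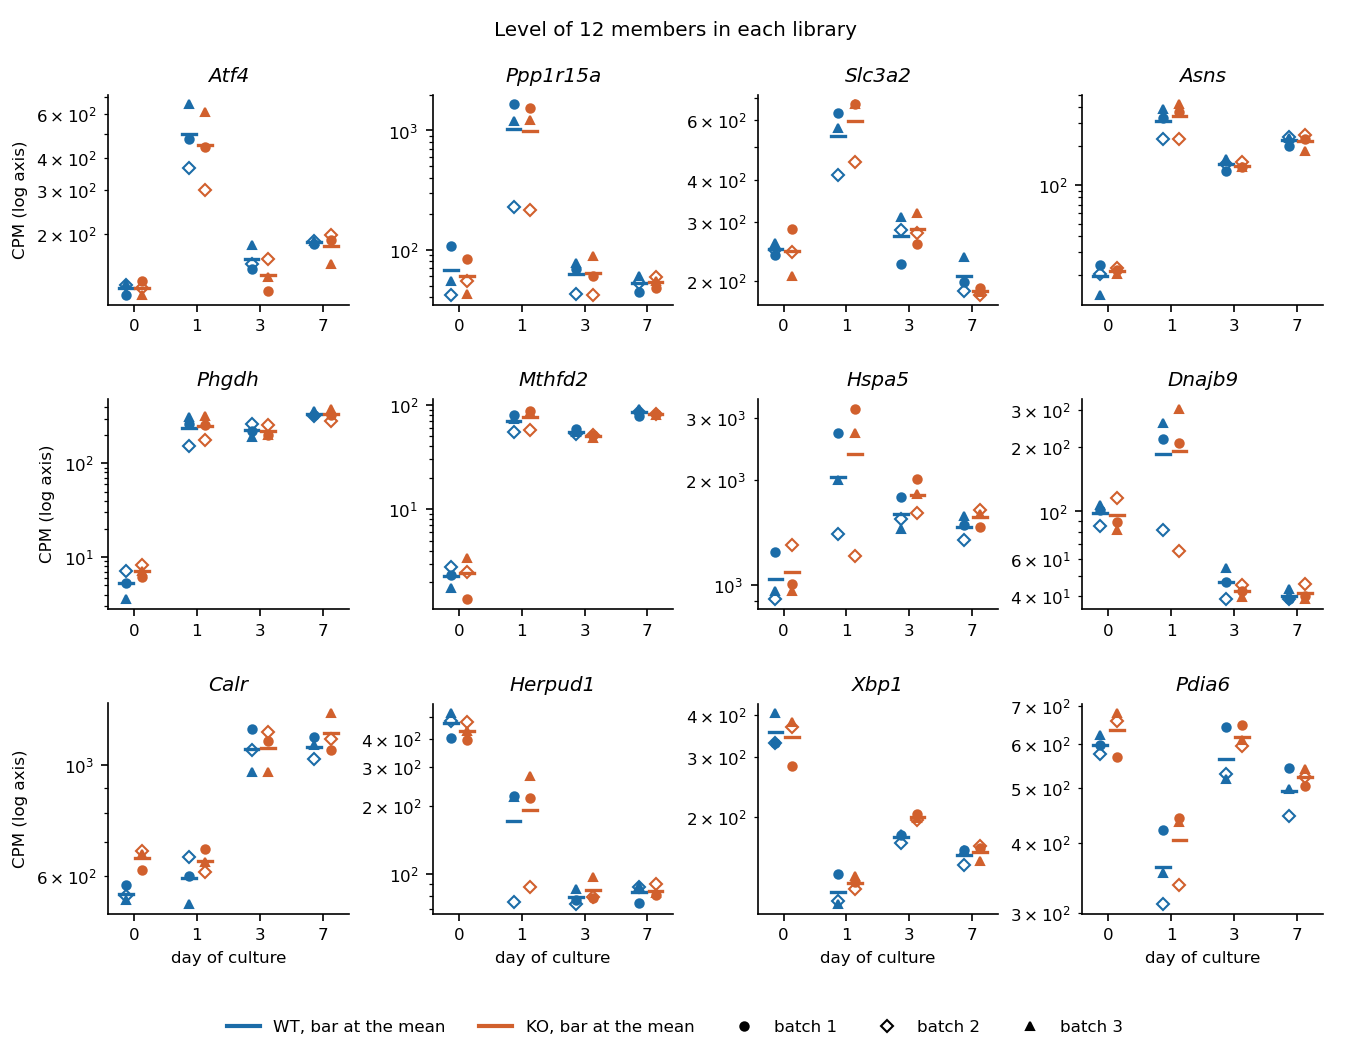
Level of 12 members (1 panel each) by day of culture, in CPM on a log axis. Points are libraries, with batch 2 as open diamonds, bars are group means, and blue and orange are Krt8+/+ (WT) and Krt8-/- (KO) AECs. Ppp1r15a, Dnajb9, and Herpud1 of batch 2 lie apart from batches 1 and 3 on day 1 in both genotypes, while Phgdh and Mthfd2 stay high from day 1 to day 7.

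Phgdh, Mthfd2, and Psat1 gave the largest changes of the list on day 1 in both genotypes. Asns and Ppp1r15a came next, in an order that differed between the genotypes and with batch 2 left out on that day. All 5 enzymes rose on day 1 in both genotypes, beside 26.2% of all genes in Krt8+/+ and 23.7% in Krt8-/- AECs. On day 7 all 5 enzymes were above day 0 in both genotypes, beside 28.6% of all genes in each. Phgdh, the first enzyme of serine synthesis, went from 5.28, 7.04, and 3.54 CPM on day 0 to 261, 152, and 308 CPM on day 1 in Krt8+/+ AECs, and was at 220.3, 263, and 190.2 CPM on day 3 and 325, 321, and 359 CPM on day 7. The lowest cultured library was at 152 CPM and the highest library of day 0 at 7.04 CPM. This was a rise of 45.4-fold on day 1 (log2 5.50, SE 0.30, adjusted p = 2.72e-11) and 63.2-fold on day 7 (log2 5.98, SE 0.31, adjusted p = 7.26e-12). The change from day 1 to day 3 was not past the threshold (adjusted p = 0.794).

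Mthfd2, a mitochondrial enzyme of the folate cycle, was at 2.35, 2.82, and 1.77 CPM on day 0, 79.8, 54.6, and 73.9 CPM on day 1, 58, 52.9, and 54.8 CPM on day 3, and 78.3, 85.4, and 92.1 CPM on day 7. The groups of culture did not overlap day 0. Mthfd2 rose 29.8-fold on day 1 (log2 4.90, SE 0.25, adjusted p = 9.66e-12) and was 36.6-fold above day 0 on day 7. Shmt2, which passes carbon from serine to mitochondrial folate, rose from 17.2, 19.2, and 18.6 to 125, 89.8, and 90 CPM (log2 2.47, adjusted p = 2.47e-10) and was again 5.55-fold above day 0 on day 7.

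Asns, which makes asparagine, and Psat1, the next enzyme of serine synthesis after Phgdh, peaked on day 1. Asns was at 24, 20.5, and 13.9 CPM on day 0, 328, 226, and 390.3 CPM on day 1, 128, 146, and 158 CPM on day 3, and 200.04, 233, and 232 CPM on day 7. Day 3 lay below day 1 without overlap (log2 -1.12, SE 0.21, adjusted p = 0.000633), and both lay far above day 0. Psat1 was at 5.09, 5.85, and 11.2 CPM on day 0 and 185, 116, and 244 CPM on day 1 (25-fold, adjusted p = 6.94e-09), and fell to 67.8, 49.8, and 54.2 CPM on day 3 (log2 -1.67, adjusted p = 0.000898). On day 7 it was still 11.1-fold above day 0.

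The 2 transporter subunits join into 1 exchanger of large neutral amino acids. Both rose on day 1 in Krt8+/+ AECs, beside 26.2% of all genes. The light chain gene Slc7a5 was at 27.3, 25.5, and 24.8 CPM on day 0, 104, 76, and 86.5 CPM on day 1, 87.6, 88.5, and 75.7 CPM on day 3, and 84.9, 93.7, and 109 CPM on day 7. It rose 3.43-fold on day 1 (adjusted p = 4.83e-08) and stayed 3.71-fold above day 0 on day 7 (adjusted p = 1.21e-08). The heavy chain gene Slc3a2 was at 238, 247, and 258, then 629.7, 411, and 571, then 224, 282, and 309, then 198, 186, and 235 CPM on the same days. Its rise on day 1 was 2.17-fold (adjusted p = 2.36e-05), it fell by day 3 (log2 -0.98, adjusted p = 0.000374), and on day 7 it did not differ from day 0 past the threshold (adjusted p = 0.197).

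Promoters of these genes were searched for the core of the element that ATF4 binds with C/EBP partners, TGATGNAA on either strand, in the RefSeq window of 250 bases before to 50 bases after each start (GRCm38.p6). RefSeq windows were matched for 32 of the 36 members, all but Slc7a5, Manf, Atf6, and Hyou1. The core was found in 4 of these 32, namely Asns, Chac1, Trib3, and Herpud1, and in 3.97% of all 32851 promoters searched. It is shown for Asns and Chac1, since both rose on day 1 and stayed high, with the matched bases in capitals and the stretch in the direction of the gene, so that TTGCATCA in Chac1 is a match on the reverse strand. The windows are chr6:7693215-7693242 (minus strand) and chr2:119351039-119351066 (plus strand). The match in Trib3 lies after the start and is not shown.
Asns: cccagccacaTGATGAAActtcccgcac
Chac1: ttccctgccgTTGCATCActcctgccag
In Krt8+/+ AECs, Phgdh, Psat1, Shmt2, Mthfd2, Slc3a2, Atf4, Ddit3, Ppp1r15a, and Cebpb also rose on day 1 without this core in their windows. Herpud1, whose window holds the core before the start, fell on that day. A match to these letters is a description of the sequence only.

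Of the 15 ER chaperones and foldases, 3 were higher and 5 lower on day 1 in Krt8+/+ AECs, near the 26.2% and 28.5% of all genes. Hspa5, Dnajb9, and Sdf2l1 rose, Pdia4, Pdia6, P4hb, Dnajc3, and Creld2 fell, and the other 7 did not pass the threshold. By day 3 against day 1, 9 of the 15 had risen and 1, Dnajb9, had fallen, beside 14.4% and 11.9% of all genes. On day 7 against day 0, Hsp90b1, Calr, Canx, Pdia3, Sdf2l1, and Manf were higher and Dnajb9, Dnajc3, and Creld2 were lower, beside 28.6% and 30.2% of all genes.

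Hspa5 encodes BiP, the main ER chaperone and the protein that holds the sensors inactive. It was at 1245, 912, and 967 CPM on day 0, 2722, 1404, and 1998 CPM on day 1, 1785, 1547, and 1450.5 CPM on day 3, and 1489, 1348, and 1576 CPM on day 7. Batches 1 and 3 were highest on day 1, while batch 2 was higher on day 3 than on day 1. The rise on day 1 was 1.96-fold (log2 0.97, SE 0.26, adjusted p = 0.00388), and 1.27 on the log2 scale without batch 2 on that day. It was not past the threshold when batch 3 was left out. In Krt8-/- AECs, Hspa5 went from 1008, 1304, and 966 to 3195, 1213, and 2715 CPM (log2 1.12, adjusted p = 0.00141), where batch 2 did not rise and days 0 and 1 overlapped.

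Dnajb9, a cochaperone of BiP that acts on IRE1, showed the largest split between batches of the chaperones. Its level in Krt8+/+ AECs was 102, 85.1, and 107 CPM on day 0, 218, 81.5, and 259 CPM on day 1, 46.7, 38.7, and 54.2 CPM on day 3, and 38.7, 38.7, and 43.5 CPM on day 7. Batch 2 did not rise on day 1, and the groups of days 0 and 1 overlapped. The change on day 1 was 0.93 on the log2 scale (SE 0.38, adjusted p = 0.0427), was lost when batch 1 or 3 was left out, and was 1.37 without batch 2 on day 1. From day 1 to day 3 Dnajb9 fell (log2 -2.00, SE 0.39, adjusted p = 0.000768), and on day 7 it lay below day 0 (log2 -1.28, adjusted p = 0.0067).

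Sdf2l1, an ER protein that works with cochaperones of BiP, rose from 20.7, 16.9, and 22.1 to 34.7, 43.1, and 26.3 CPM on day 1 (log2 0.80, adjusted p = 0.00361), a call lost when batch 2 was left out. The protein disulfide isomerase genes Pdia6, P4hb, and Pdia4 went the other way. Pdia6 was at 596, 575, and 621 CPM on day 0, 421, 312, and 353 CPM on day 1, and 642, 529.97, and 519.8 CPM on day 3, so that it fell and returned without overlap of day 1 with either neighbour (log2 -0.72 and 0.64, adjusted p = 0.000125 and 0.00139). P4hb took the same course, with a log2 of -0.70 on day 1 and 0.69 from day 1 to day 3, and so did Pdia4, with -0.61 and 0.77. The fall of Pdia4 on day 1 was not past the threshold without batch 2 or without batch 3. Dnajc3, an inhibitor of PERK and a cochaperone, fell from 257, 214, and 266 to 147, 117, and 118 CPM (log2 -0.95, adjusted p = 1.20e-05) and regained part of it by day 3 (log2 0.51). Creld2, a stress protein of the ER, fell by 0.41 on the log2 scale (adjusted p = 0.0116), a call lost without batch 2 or 3.

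The lectin chaperones and Pdia3, which fold glycoproteins together, rose late. Calr was at 576, 547, and 536 CPM on day 0, 598, 654, and 527 CPM on day 1, 1179, 1074, and 970.4 CPM on day 3, and 1136, 1027, and 1097 CPM on day 7. Days 0 and 1 overlapped, and the 6 libraries of days 3 and 7 lay above both. Calr rose from day 1 to day 3 (log2 0.86, SE 0.12, adjusted p = 2.29e-05) and was 1.96-fold above day 0 on day 7 (adjusted p = 4.57e-07). Pdia3 and Canx were 1.6-fold and 1.47-fold above day 0 on day 7 (adjusted p = 1.98e-05 and 0.000582). Hsp90b1, the HSP90 of the ER, was 1.32-fold above (adjusted p = 0.0356), a call lost whenever 1 batch was left out. Manf, a secreted ER stress protein, reached 1.57-fold (adjusted p = 0.000762). Its gene overlaps Rbm15b and Dcaf1, which held 34.8% and 26.5% of its counts. Hyou1, which recharges BiP with ATP, and Dnajb11, a cochaperone, were not called on day 1 or on day 7 in Krt8+/+ AECs. Hyou1 ranged from 25.4 to 59.9 CPM and Dnajb11 from 93 to 155 CPM over the 12 Krt8+/+ libraries.

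The same promoter windows were searched for the ER stress response element, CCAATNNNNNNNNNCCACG on either strand, which NF-Y binds together with ATF6 or XBP1. It was found in 8 of the 32 members with a window, Hspa5, Hsp90b1, Calr, Canx, Pdia6, Dnajc3, Creld2, and Syvn1, and in 0.119% of all 32851 promoters. Of the 13 chaperones and foldases with a window, 7 held it. The list was chosen for roles in this response, so the share is a description of the list. The stretches are shown in the direction of each gene with the element in capitals, where CGTGG at the left marks the reverse strand.
Hspa5: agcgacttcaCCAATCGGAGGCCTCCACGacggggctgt
Calr: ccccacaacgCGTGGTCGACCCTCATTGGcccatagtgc
Canx: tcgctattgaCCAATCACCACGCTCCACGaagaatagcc
Pdia6: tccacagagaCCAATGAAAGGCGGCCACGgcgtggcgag
Dnajc3: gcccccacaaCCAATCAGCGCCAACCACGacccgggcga
Creld2: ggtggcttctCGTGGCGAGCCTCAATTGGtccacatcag
Syvn1: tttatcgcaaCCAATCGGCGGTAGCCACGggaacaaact
They lie at chr2:34772015-34772053, chr8:84847065-84847103 (minus strand), chr11:50325790-50325828 (minus strand), chr12:17266481-17266519, chr14:118937817-118937855, chr15:88819510-88819548, and chr19:6046522-6046560 in GRCm38.p6. Hsp90b1 held 2 such elements, starting 212 and 107 bases before its start. The 8 genes shared the element and not a direction. On day 1 in Krt8+/+ AECs, Hspa5 rose, Pdia6, Dnajc3, Creld2, and Syvn1 fell, and Hsp90b1, Calr, and Canx did not pass the threshold. From day 1 to day 3, Hsp90b1, Calr, Canx, Pdia6, Dnajc3, and Syvn1 rose.

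All 4 degradation genes on the list fell on day 1 in each genotype, where 28.5% of all genes fell in Krt8+/+ and 26.9% in Krt8-/- AECs. Herpud1, a membrane scaffold of the degradation complex, was at 404, 479, and 521 CPM on day 0, 223, 75.5, and 219.9 CPM on day 1, 76.6, 73.6, and 86.2 CPM on day 3, and 74.4, 87.5, and 88.7 CPM on day 7 in Krt8+/+ AECs. Batch 2 had reached the level of day 3 on day 1, and batches 1 and 3 lay between days 0 and 3. Herpud1 fell by 1.44 on the log2 scale on day 1 (SE 0.33, adjusted p = 0.000955) and by 1.13 more from day 1 to day 3 (adjusted p = 0.0139). On day 7 it was 5.6-fold below day 0 (log2 -2.49, adjusted p = 2.55e-06). Without batch 2 on day 1, the changes were -0.99 on day 1 and -1.49 from day 1 to day 3.

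The Herpud1 window held both a second form of the ER stress element, ATTGGNCCACG, and the core that ATF4 binds, the latter on the reverse strand. The second form was found in 2 of the 32 members, Herpud1 and Dnajb11, and in 0.0365% of all promoters. In Dnajb11 it lies after the start. The element TGACGTGG, which XBP1 binds, was in 0 of the 32 and in 0.676% of all promoters. The stretch of Herpud1 is chr8:94386307-94386397, with both matches in capitals.
Herpud1: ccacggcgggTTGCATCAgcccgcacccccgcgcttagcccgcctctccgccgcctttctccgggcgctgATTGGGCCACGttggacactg

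Sel1l and Syvn1 encode the adaptor and the ubiquitin ligase of the main degradation complex, and Edem1 marks misfolded glycoproteins for it. Sel1l went from 372, 276, and 308 CPM on day 0 to 141, 94.5, and 126 CPM on day 1, and was at 152, 200.2, and 160.3 CPM on day 3 and 129.8, 142, and 178 CPM on day 7. No library of culture reached the level of day 0, and Sel1l was 2.64-fold lower on day 1 (adjusted p = 1.91e-06) and 2.13-fold lower on day 7 (adjusted p = 2.50e-05). Edem1 fell from 146, 106, and 139 to 93.3, 60.1, and 76.3 CPM on day 1 (log2 -0.77, adjusted p = 0.000226) and returned to 125, 127, and 112 CPM on day 3 (log2 0.67, adjusted p = 0.0026). Syvn1 also fell (log2 -0.93, adjusted p = 3.70e-05) and rose again by day 3 (log2 0.50). Mrpl49, on the opposite strand of Syvn1, held 72.6% as many counts.

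Of the sensors, Ern1 fell and Atf6 rose on day 1, and Eif2ak3, which encodes PERK, did not pass the threshold. Xbp1, the transcription factor gene whose RNA the sensor IRE1 splices, gave the largest fall of these 4 genes. It was at 329.9, 331, and 404 CPM on day 0, 136, 114, and 111 CPM on day 1, 178, 168, and 179 CPM on day 3, and 160.4, 145, and 161 CPM on day 7. All libraries of culture lay below those of day 0, and day 1 lay lowest. Xbp1 was 2.94-fold lower on day 1 (log2 -1.56, SE 0.12, adjusted p = 2.81e-09), rose by 0.54 from day 1 to day 3 (adjusted p = 0.00211), and was 2.28-fold lower than day 0 on day 7 (adjusted p = 3.86e-08).

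Ern1, which encodes IRE1, went from 51.4, 43, and 38.9 CPM on day 0 to 36.3, 25.2, and 24.9 CPM on day 1 and 21.7, 17.2, and 22.4 CPM on day 7. The fall on day 1 (log2 -0.63, adjusted p = 0.0163) was not past the threshold without batch 2 on that day (log2 -0.45, adjusted p = 0.11 from edgeR), while the fall by day 7 was (2.18-fold, adjusted p = 0.00013 with all libraries). Atf6 was at 70.8, 57.7, and 62.8 CPM on day 0 and 125, 64.2, and 111 CPM on day 1 (log2 0.65, adjusted p = 0.0156), where batch 2 again lay within the range of day 0. Leaving out batch 1 or batch 3 ended that call, and the log2 change was 0.98 without batch 2 on day 1. Eif2ak3 was at 58.2, 46.1, and 50.4 CPM on day 0 and 71.5, 25, and 51.5 CPM on day 1, with the highest and the lowest of the 6 values both on day 1.

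Between days 1 and 3 in Krt8+/+ AECs, 13 members rose beside 14.4% of all genes tested and 10 fell beside 11.9%. The risers were 9 chaperones, Edem1, Sel1l, Syvn1, and Xbp1, and those that fell were 5 of the 6 genes of the ATF4 group, Asns, Psat1, Slc3a2, Dnajb9, and Herpud1. The median was -0.09 over the members and -0.05 over all genes. This comparison shares its day 1 libraries with the one before, so a library that stood apart on day 1 enters both. The count of 23 fell to 15 without batch 1, 17 without batch 2, and 15 without batch 3, and it was 23 without batch 2 on day 1 alone, where the calls of Sel1l, Syvn1, and Ddit3 ended. Among members with values above, the call of Herpud1 and that of Trib3 ended without batch 1 or 3, that of Xbp1 and that of Dnajc3 without batch 2 or 3, and that of Pdia4 without batch 2. In Krt8-/- AECs, 9 members rose beside 13.4% of all genes and 12 fell beside 10.2%, with Mthfd2 and Slc7a5 among the latter. That count of 21 was 15, 18, and 12 without batches 1, 2, and 3, and 24 without batch 2 on day 1 alone.

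From day 3 to day 7, fewer members and smaller shares of all genes were called than from day 1 to day 3. In Krt8+/+ AECs, 0 members were higher beside 3.11% of all genes and 0 were lower beside 3.47%, with edgeR. At an unadjusted p under 0.05 there were 7, DESeq2 called 2, and without batch 2 on day 1 edgeR called 2. In Krt8-/- AECs, 4 members were higher beside 4.4% of all genes and 2 lower beside 6.15%. These were Ddit3 (log2 0.88), Slc7a5 (0.70), Mthfd2 (0.69), and Canx (0.42), and in the other direction Slc3a2 (-0.62) and Creld2 (-0.42). Of these 6, Slc7a5 alone was still called without batch 1, Ddit3 alone without batch 3, and 0 without batch 2. The difference between the genotypes in this step is part of the test of genotype by day.

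Over the whole course from day 0 to day 7, 16 members were higher in Krt8+/+ AECs beside 28.6% of all genes, and 7 were lower beside 30.2%. The 5 enzymes, Slc7a5, Chac1, Trib3, Ddit3, Atf4, and 6 chaperones made up the higher members. Herpud1, Sel1l, Xbp1, Ern1, Dnajb9, Dnajc3, and Creld2 were the lower ones. Dnajb9 was not called without batch 1, nor was Sdf2l1 without batch 1 or 2. The Krt8-/- AECs gave 15 higher beside 28.6% and 8 lower beside 29.9%. Scaled by total counts alone, the Krt8+/+ AECs gave 20 higher beside 41.6% of all genes and 5 lower beside 21.1%, and the Krt8-/- AECs 22 beside 40.6% and 4 beside 21.2%. Cebpb was among the lower members in Krt8-/- AECs (log2 -0.98, adjusted p = 0.00495). Days 7 and 1 are set against the same day 0 libraries, so these values and those of day 1 are not independent.

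**Figure D3:**
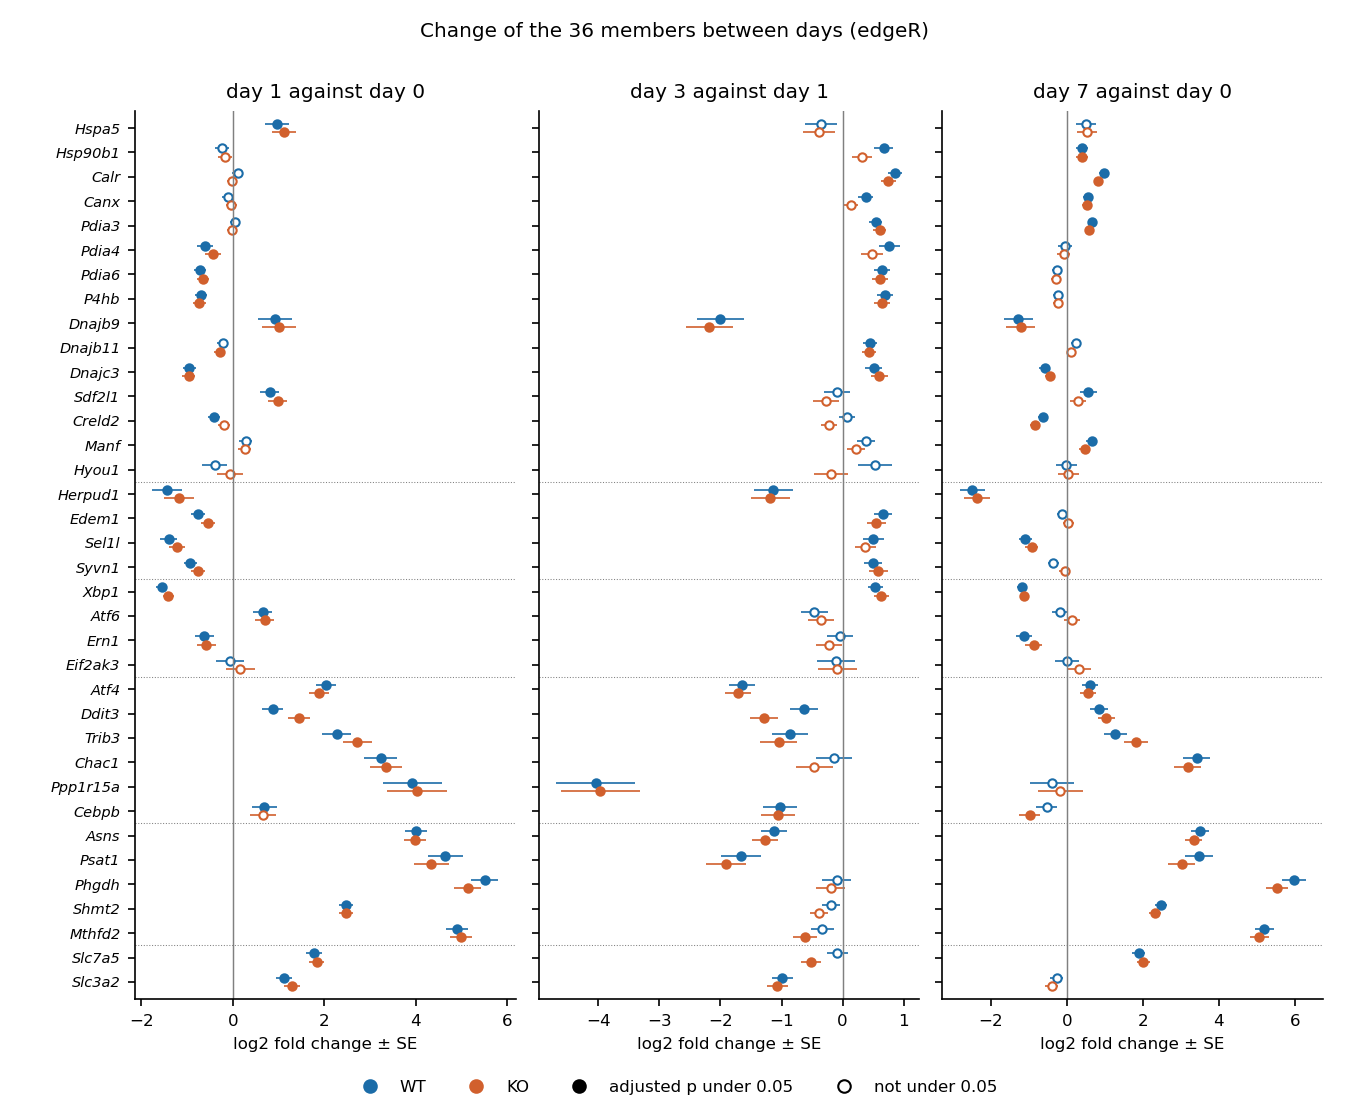
Log2 fold change with its standard error of each of the 36 members (rows, in the order of their roles) for day 1 against day 0, day 3 against day 1, and day 7 against day 0. Blue is Krt8+/+ (WT), orange is Krt8-/- (KO), and filled points have an edgeR adjusted p under 0.05. Phgdh and Mthfd2 lie near 5 or above on days 1 and 7, Ppp1r15a rises and falls by about 4, and the points of the genotypes lie beside each other.

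No member was called between Krt8-/- and Krt8+/+ AECs on any day by edgeR, with 0 of 36 on day 0, beside 0.0277% of all genes tested, and 0 of 36 on days 1, 3, and 7, beside 0.0166% on each. At an unadjusted p under 0.05 there were 0, 1, 0, and 0 members on the 4 days, and DESeq2 called 0 on each. The 1 member was Creld2 on day 1, at 79.5, 77.3, and 63.1 CPM in Krt8+/+ and 99.9, 77.3, and 92.9 CPM in Krt8-/- AECs (log2 0.30, SE 0.13, adjusted p = 1), where batch 2 was equal to 3 digits. The largest differences by size were Phgdh on day 0 (log2 0.43), Sdf2l1 on day 1 (0.41), Hyou1 on day 3 (-0.41), and Cebpb on day 7 (-0.41), each with an adjusted p of 1. Without batch 2 on day 1, the day 1 differences were 0.75 for Sdf2l1 and 0.44 for Creld2 (adjusted p = 1 for both in edgeR), and 4 members had an unadjusted p under 0.05. Sdf2l1 on day 1 was at 34.7, 43.1, and 26.3 CPM in Krt8+/+ and 50.3, 36.3, and 51.8 CPM in Krt8-/- AECs, higher in 2 of 3 batches.

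A p value that misses the threshold does not show that the genotypes were alike, so the intervals are given. The 95% interval of the difference lay within 1 log2 unit of 0 for 32 of 36 members on day 0 and for 35 of 36 on each of days 1, 3, and 7. The exception on every day was Ppp1r15a, and on day 0 Trib3, Psat1, and Phgdh were the others. The median distance from the estimate to the end of its interval was 0.40 on day 0 and 0.39 on the other days. These intervals come from a fit without batch, so the spread that both genotypes of a batch share is part of them. With batch as a block, the counts were 33 of 36 on day 0 and 35 of 36 on each later day, and the median distance was 0.39 on all 4 days. At an unadjusted p under 0.05 the blocked fit held Creld2 and Pdia4 on day 1 and Hyou1 on day 3, each with an adjusted p of 1 in edgeR. Its day 1 interval of Ppp1r15a ran from -1.07 to 0.94, against -1.26 to 1.13 without the block. The block is one shift per batch over all days and both genotypes, while the low Ppp1r15a of batch 2 was seen on day 1, so part of that shared spread stays in the blocked interval too. As a description with no test, the estimate was higher in Krt8-/- AECs for 23 of 36 members on day 0 beside 48.0% of all genes, and for 29 of 36 on day 1 beside 47.8%. It was higher for 18 members on day 3 beside 50.4% of all genes, and for 22 on day 7 beside 50.9%. Differences in the response over time were tested with 3 degrees of freedom, and 0 of 36 members passed beside 0.00554% of all genes (0 at an unadjusted p under 0.05, and 0 with DESeq2). In batch 1, the Krt8+/+ libraries held Xist at 62.4 to 79.5 CPM and 4 Y-linked genes at no more than 0.441 CPM in sum, while the Krt8-/- libraries held the Y-linked genes at 173 to 191 CPM and also Xist at 5.92 to 12 CPM, so in that batch genotype and sex cannot be told apart. In batch 2 the libraries of both genotypes held Xist at 42.7 to 154 CPM and the Y-linked genes at no more than 0.241 CPM, and in batch 3 they held Xist at no more than 2.24 CPM and the Y-linked genes at 174 to 229 CPM. Batch 2 is also the one that stood apart on day 1, and the part of sex in this was not tested.

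**Figure D4:**
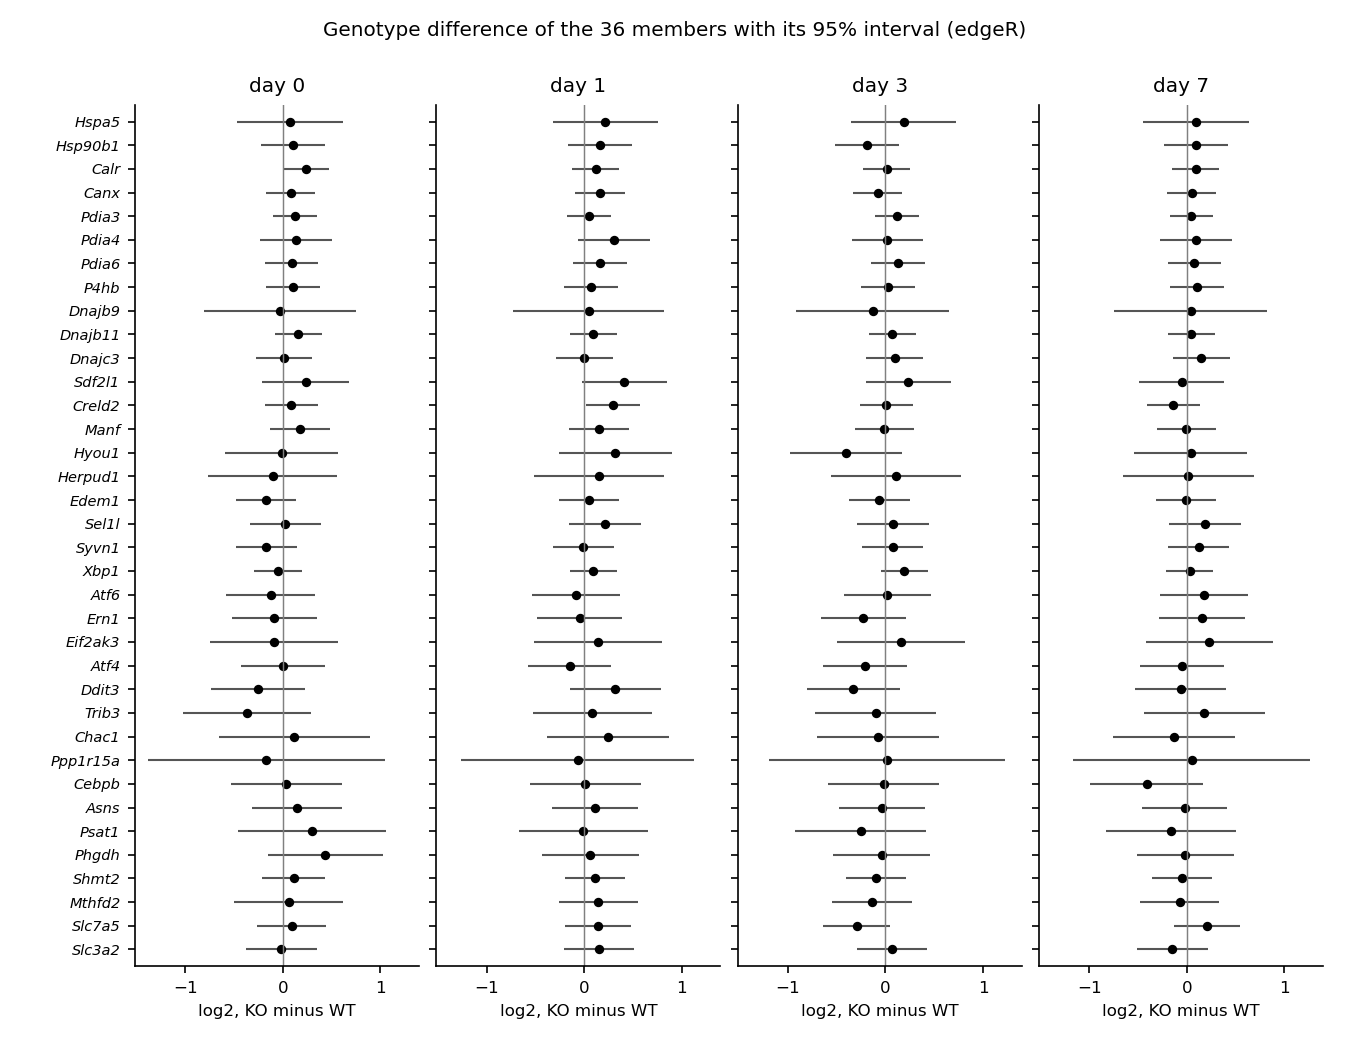
Difference between Krt8-/- (KO) and Krt8+/+ (WT) AECs on the log2 scale (points) with its 95% interval (lines) for each of the 36 members on days 0, 1, 3, and 7, from edgeR. The interval of Ppp1r15a is the widest on each day, and the point furthest from 0 is Phgdh on day 0 (0.43).

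Levels of different genes were compared per kilobase of exon. On day 0 in Krt8+/+ AECs, P4hb led the list at 402 ± 22.8 CPM per kilobase, ahead of Pdia3, Hspa5, Hsp90b1, and Herpud1 at 248 ± 16, 246 ± 42.2, 209 ± 21.8, and 200.5 ± 25.4 (mean ± SD, n = 3). Pdia3 and Hspa5 did not differ beyond their spread. Mthfd2, Chac1, Psat1, and Phgdh closed the list, at 0.663 ± 0.15, 0.963 ± 0.249, 1.73 ± 0.781, and 2.13 ± 0.703. On day 1, Hspa5 at 483 ± 156 and Ppp1r15a at 352 ± 250.2 came first, with a spread that overlapped, and Pdia3, P4hb, and Atf4 followed. By day 7, Pdia3, Calr, Hspa5, and P4hb led at 395 ± 20.8, 377 ± 19.2, 348 ± 27.2, and 342 ± 30.9, and Phgdh had become the seventh of 36. The members together held 0.662%, 1.11%, 1.21%, and 1.08% of the counts of Krt8+/+ AECs over the 4 days. These are shares of the total counts without TMM factors, of which Sftpc alone held 14.2% on day 0 and 0.00514% on day 7.

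A wider list of 119 genes in the same pathways, of which 117 were tested, had 44 genes higher and 44 lower on day 1 in Krt8+/+ AECs, where 26.2% of all genes were higher and 28.5% lower. From day 1 to day 3 these shares of all genes were 14.4% and 11.9%, and from day 0 to day 7 they were 28.6% and 30.2%. Of 42 other genes of the ATF4 pathway, 29 rose and 5 fell on day 1 in Krt8+/+ AECs, with a median log2 of 1.6 beside 0 over all genes. The cystine transporter gene Slc7a11 rose from a mean of 3.27 to 328 CPM (log2 6.68, adjusted p = 1.85e-13), the stress cytokine Gdf15 by a log2 of 4.47, and the transcription factor gene Atf3 by 4.19. Slc7a3, a transporter of cationic amino acids, averaged 0.0848 CPM on day 0 and 34.6 CPM on day 1. Vldlr, Pck2, Shmt1, and Slc6a9 were lower (log2 -1.81 to -0.89). By day 3, 16 of the 42 had fallen and 4 had risen, and Slc7a11 fell by 2.97 on the log2 scale. From day 3 to day 7, 6 of the 42 rose and 1 fell, beside 3.11% and 3.47% of all genes. Psph and Pycr1, of serine and proline synthesis, were among those that rose (log2 0.92 and 0.88), with the secreted stress gene Stc2 (2.54) and Gdf15 (1.80), and Slc7a11 was the gene that fell (-0.68). On day 7 against day 0, 29 were higher and 9 lower, and the lower ones included Cbs and Cth, which turn homocysteine into cysteine, and the transporter genes Slc1a5 and Slc6a9.

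Of 38 other genes of ER folding, oxidation, and export, 4 rose and 19 fell on day 1, and 22 rose and 0 fell from day 1 to day 3. Sil1, a nucleotide exchange factor of BiP, went from 71.4 to 22.4 CPM on day 1 (log2 -1.68), and the cyclophilin gene Ppib from 361 to 144 CPM (log2 -1.33). Kdelr3, a receptor that returns proteins to the ER, rose on day 1 (log2 0.89) and again by day 3 (1.5), as did Pdia5 (0.54 and 1.43), and Ero1l, the oxidase of the disulfide isomerases, rose on day 1 (0.81). In the degradation list of 17 genes, 10 fell and 4 rose on day 1, the latter near the share of all genes. The lectin gene Os9 fell by 1.3 and Edem2 by 1.05 on the log2 scale, while Vcp, the ATPase that extracts proteins from the ER, and Ube2j1 rose (0.64 and 0.98). Among 20 tested sensor and eIF2 genes, 7 rose and 10 fell on day 1. Eif2s1, which encodes the subunit of eIF2 that is phosphorylated, rose from 91.5 to 358 CPM (log2 1.97), and Eif2ak4, which encodes the amino acid sensing kinase GCN2, fell from 66.4 to 21.7 CPM (log2 -1.61). No gene of the wider list differed between the genotypes on any day past the threshold (0 of 117 with edgeR, and 1, 5, 4, and 0 at an unadjusted p under 0.05).

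Genes of other cells and states moved beside these changes. A list of 10 fibroblast genes summed to 612, 203, 1813, and 2980 CPM over the 4 days in Krt8+/+ AECs, with Acta2 the most abundant on day 7 and no marker at 0. The sums in Krt8-/- AECs were 560, 164, 1285, and 3664 CPM, and Thy1 was at 0 on day 1. On day 1 in Krt8+/+ AECs, 0 of the 10 passed the test as higher and 4 as lower, beside 26.2% and 28.5% of all genes, and Pdgfra averaged 19.7 CPM on day 0 and 63.5 CPM on day 1. On day 7 the fibroblast list summed to 1894, 3141, and 3905 CPM in the 3 Krt8+/+ libraries and 2432, 3107, and 5454 CPM in the Krt8-/- libraries. Its part in the values of days 3 and 7 was not tested. In bulk libraries, fewer cells of a type and less RNA per cell cannot be told apart. The 10 macrophage genes, of which 1 passed the test, summed to 88.6 CPM on day 0 and 339 CPM on day 1, led by Chil3, with 602, 349.7, and 66.2 CPM in batches 1, 2, and 3. Their part in the values of day 1 was not tested. Of 12 proliferation genes, 12 rose from day 1 to day 3, beside 14.4% of all genes, from 36.5 to 826 CPM in sum. Their part was not tested either.

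Genes of plasma cells, which use this pathway heavily, had few counts on days 3 and 7 apart from Sdc1. Of their list, Sdc1 held 1238 of 1271 CPM on day 0 and is also made by epithelium, and Jchain averaged 2.44 and 0.0679 CPM on days 0 and 1 in Krt8+/+ AECs. On day 7 in Krt8+/+ AECs, Jchain, Mzb1, Ms4a1, Ighm, Igkc, and Tnfrsf17 were at 0. Jchain was at 33.7 CPM on day 0 and 10.6 CPM on day 1 in the Krt8-/- libraries. On the same days Igkc averaged 90.5 and 21.9 CPM in Krt8-/- and 7.71 and 1.28 CPM in Krt8+/+ AECs. The part of this in the comparisons of genotypes was not tested. Club and ciliated genes, led by Scgb1a1, summed to 9575, 9776, 1027, and 40.4 CPM over the 4 days in Krt8+/+ AECs. In Krt8-/- AECs they summed to 18638 CPM on day 0, with Bpifa1 at 949 CPM against 92.5 CPM in Krt8+/+ AECs, and the part of this in the day 0 comparison of genotypes was not tested. T cell genes summed to a group mean of at most 7.67 CPM, with 10.2 CPM in the highest library. Neutrophil genes summed to 22.9 CPM on day 0 in Krt8+/+ and 112 CPM in Krt8-/- AECs, almost all Ltf. Endothelial genes summed to 243 CPM on day 0 and 54.8 to 75.3 CPM in culture, with Esam the most abundant and Pecam1 and Emcn at 0 on days 3 and 7 in Krt8+/+ AECs. In the same cells the AEC1 list was at 3745, 1647, 3728, and 3608 CPM and the transitional list, which rose by 9 of 9 genes on day 1, at 1002, 9343, 9535, and 13284 CPM. Of 11 cytosolic heat shock genes, 8 rose on day 1 in Krt8+/+ AECs, and of 14 immediate early genes, 3 rose and 6 fell, beside 26.2% of all genes higher and 28.5% lower. Over the 4 days, the mitochondrial share of their counts was 1.99%, 2.19%, 1.07%, and 1.17%.

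**Figure D5:**
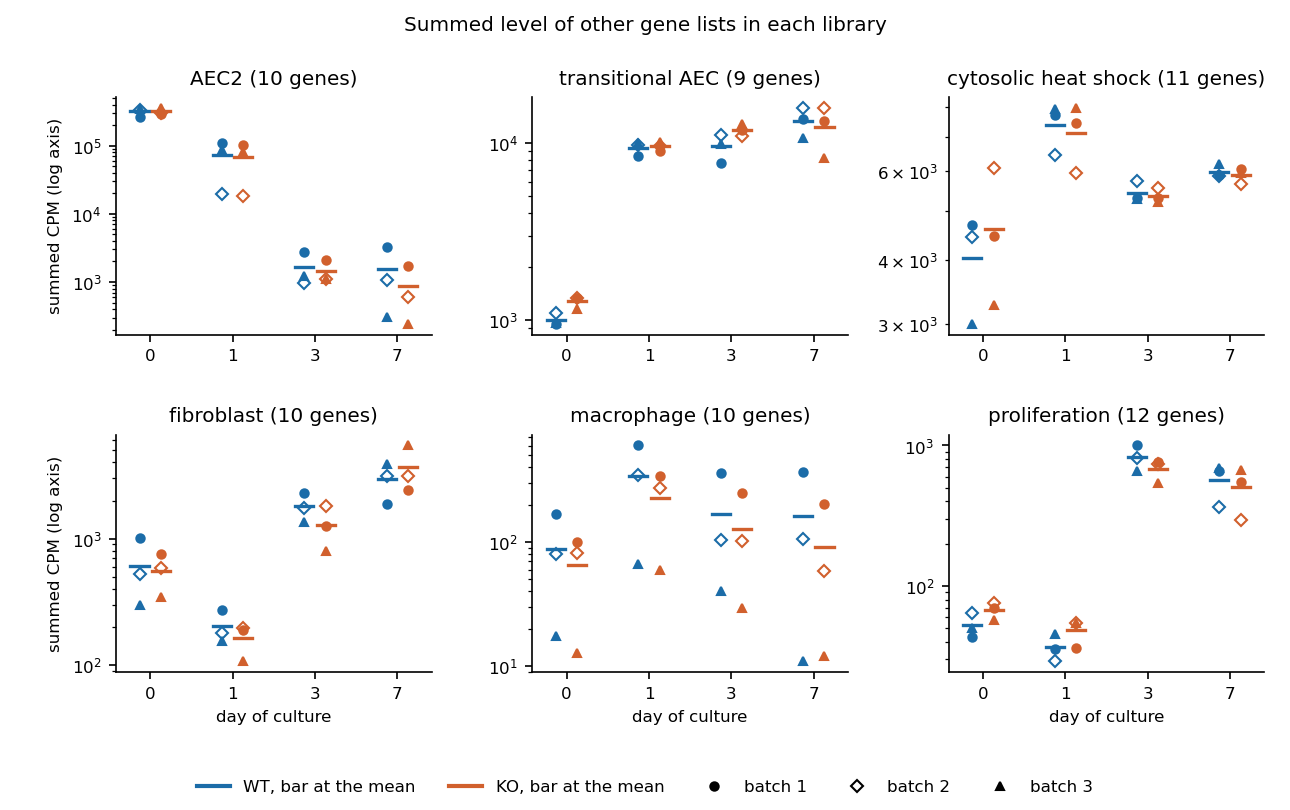
Summed level of 6 other gene lists by day of culture, in CPM on a log axis. Points are libraries, with batch 2 as open diamonds, bars are group means, and blue and orange are Krt8+/+ (WT) and Krt8-/- (KO) AECs. The AEC2 sum of batch 2 lies below the others on day 1, the fibroblast sum is lowest on day 1, and the macrophage sum of batch 3 lies below the others on each day.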

How the data were processed

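Bulk RNA-seq was measured in 24 libraries (2 genotypes, 4 days, 3 batches). The authors deposited 1 table of counts per gene, as whole numbers. The submitters' processing notes name cutadapt 2.3, STAR 2.7.8a, RSEM 1.3.3 and GRCm38, and the sources used here give neither the strand setting nor the step that made the counts whole. Of 55426 entries, 5 reporter sequences were left out. Symbols from GENCODE M21 matched 55240 of 55421 genes, and where a symbol had several IDs the longest gene model was kept (the other Ddit3 ID held 1 count, against 5808).

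Counts were fitted with edgeR 4.0.16 (quasi-likelihood test, TMM factors, 8 groups, 16 residual degrees of freedom) in R 4.3.3 after filterByExpr (count minimum 10, total 15), and p values were adjusted by Benjamini-Hochberg over 18046 genes. The fit was tested on simulated counts, drawn independently per library with few changed genes and no batch effect. That test does not cover the spread between batches seen here. No 2 libraries of a group agreed within sampling noise (chi-square per gene 9.13 to 109 over 24 pairs). Libraries of 1 replicate number share a batch date in the labels. Their deviations from the group means correlated by -0.0413 to 0.545, above 0.1 in 26 of 36 pairs. The members and lists were chosen with earlier results of these data known. All members were named by role. Of the wider list, up to 4 genes per direction, sublist and Krt8+/+ comparison were named, those called with the largest log2 change, the same direction in 3 of 3 batches and a group mean of at least 1 CPM. Alternatives were DESeq2 1.42.0 (size factors and test), total counts alone, no filter, a batch block, each comparison's libraries alone, and leaving out each batch. Leaving out batch 2 on day 1 alone was added after seeing the data.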

Additional observations from a re-analysis of the deposited data

How the results depend on the processing

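With batch as a block, all 151 called changes of single members over time kept their direction and their side of the threshold, and no count of members moved by over 1.5 times. DESeq2 size factors kept 147 of 151, the DESeq2 test 149, no filter 142, each comparison's libraries alone 134, and leaving out batch 2 on day 1 144. Total counts alone kept 129 and reversed 3, namely Creld2 on day 1 in Krt8+/+ AECs (0.063) and Dnajb11 (0.20) and Pdia4 (0.045) on day 1 in Krt8-/- AECs, and 0 of these were reversed relative to the median of all genes, which total counts moved by 0.46 and 0.47. For day 7 against day 3 in Krt8+/+ AECs, where edgeR called 0 members, the DESeq2 test called 2, libraries alone 3, total counts 1, and leaving out batch 2 on day 1 2. Over all genes, the DESeq2 test called 9, 5, and 8 genes between genotypes on days 0, 1, and 3 and 3 by genotype and day, no filter called 10 and 6 on days 0 and 1 and 2 by genotype and day, and libraries alone called 2879 genes for day 3 against day 1 in Krt8+/+ AECs. The cause of these shifts was not tested.

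Leaving out 1 batch kept 114 to 120 of the 151 calls. Members called ranged over 21 to 25 for day 1 against day 0 in each genotype, 15 to 17 and 12 to 18 for day 3 against day 1 in Krt8+/+ and Krt8-/- AECs, 1 to 1 for day 7 against day 3 in Krt8-/- AECs, and 20 to 22 and 18 to 22 for day 7 against day 0. Over all genes, day 3 against day 1 gave 2614 to 3085 and 1842 to 2691, and day 7 against day 3 gave 325 to 572 and 834 to 969. Between genotypes, 2 to 5 genes were called on days 0, 1, and 7, 3 to 5 on day 3, and 0 to 0 by genotype and day. With 3 libraries a group, differences between genotypes under about 0.39 on the log2 scale lie within the usual interval of a member, with or without batch as a block.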
